A study of Mus musculus with 16 samples.

Results

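Lung endothelial cells of mice with metastases (d36) were compared with lung endothelial cells of mice that carried a primary tumour under the skin (d15), over every entry of the expression table. The comparison took the 4 libraries of the d36 time point and the 4 of d15, 8 of the 16 libraries of the series, and all 17715 entries. In both groups female C57BL/6N mice had received Lewis lung carcinoma cells, a transplantable mouse lung tumour line, under the skin. At d15 the mice were primary tumour-bearing, so that the tumour was remote from the lung, and at d36 they were metastasis-bearing. The labels do not say whether the d36 mice had been operated on, or how many mice gave cells to a library. The other groups of the series, wild-type mice without a tumour (d0) and mice after tumour resection (d22), are given only as levels. Replicates carry the numbers of the titles, 3, 4, 5 and 6 at d15 and 1, 7, 8 and 9 at d36. The title and column of d36 replicate 1 name day 29 and its time point field reads d36, which was followed. The series design calls the libraries independent biological replicates. Endothelial cells had been sorted by FACS with a gate and antibodies that are not given in the sources used here, and libraries had been made with the SMARTer Ultra Low kit from 10 ng of total RNA. Days since implantation, the primary tumour and the metastases change together between the groups and cannot be told apart.

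Lung endothelium forms the dense capillary bed of the alveoli, with general capillary cells and thin aerocytes that face the air, and the arteries and veins that feed and drain it. A distant tumour reaches these cells through the blood, with cytokines and with cells leaving the bone marrow. A metastasis reaches them in place: tumour cells leave the vessel, divide beside it, use oxygen, draw in macrophages and fibroblasts and lay down matrix. Bulk libraries of sorted cells measure the sum over all cells in the tube, in which fewer cells of a type and less RNA per cell cannot be told apart.

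The libraries were deep, at approximately 93.4 to 126 M (mega) reads at d15 and 103 to 152 M at d36, and they were less alike at d36. Across all 17715 entries, on the log2(RPKM + 1) scale, the correlation between libraries was 0.983 to 0.988 within d15 and 0.926 to 0.983 within d36 (genes are not independent replicates). Replicate 9 stood apart from its group, with a correlation of 0.967 to 0.977 to the d15 libraries and of 0.926 to 0.952 to the other d36 libraries. On the first principal component of the 13249 tested entries, which held 51.7% of the variance, replicates 1, 7 and 8 of d36 lay at 34.5, 42.4 and 28.9, replicate 9 at -16.2 and the d15 libraries between -25.1 and -20.4. The labels do not say how many metastases a lung held, and whether replicate 9 carries the right label cannot be told from them. Each mean of d36 includes it, and results are therefore also given without d36 replicate 9.

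Summed markers of carcinoma cells, fibroblasts, B cells, T and NK cells and platelets were above every d15 library in each d36 library. The sums of neutrophil, pan-leukocyte and macrophage markers were so in only some d36 libraries, and abundant members weigh most in a sum. Marker by marker, the groups did not overlap with d36 higher for 9 of 12 pan-leukocyte and 10 of 15 macrophage markers (1 macrophage marker was lower). This held for 4 of 10 carcinoma, 4 of 8 fibroblast, 3 of 6 B cell, 4 of 9 neutrophil, 2 of 4 T and NK cell and 0 of 4 platelet markers. Over all entries of the table the share was 9.89%. The 10 measured carcinoma markers summed to 46.7 to 53.9 RPKM over the d15 libraries and 439, 344, 283 and 65.5 RPKM in d36 replicates 1, 7, 8 and 9. The tumour-free d0 libraries already held 33.55 to 46.2 RPKM of them. The 8 fibroblast markers summed to 0.778 to 2.87 RPKM over the d15 libraries and 43.6, 33.6, 46.9 and 5.79 RPKM in d36 replicates 1, 7, 8 and 9. For fibroblasts replicate 9 lay within the d0 range of 3.93 to 6.75 RPKM and under d22 replicate 4 (10.6 RPKM). The 9 neutrophil markers gave 0.675 to 1.67 RPKM over the d15 libraries and 3.08, 53, 30.4 and 1.47 RPKM in d36 replicates 1, 7, 8 and 9, and the 6 B cell markers 0.39 to 1.3 RPKM over the d15 libraries and 11.3, 1.5, 43.6 and 13.4 RPKM in d36 replicates 1, 7, 8 and 9. For B cells replicate 7 lay within the d0 range of 1.24 to 3.39 RPKM and under d22 replicate 6 (6.44 RPKM). The 4 T and NK cell markers gave 1.21 to 1.74 RPKM over the d15 libraries and 1.88, 8.46, 16 and 3.33 RPKM in d36 replicates 1, 7, 8 and 9. For them replicate 1 lay within the d0 range of 1.73 to 2.155 RPKM. The 4 platelet and megakaryocyte markers gave 2.55 to 4.3 RPKM over the d15 libraries and 7.18, 12.7, 4.76 and 4.58 RPKM in these d36 replicates. For the 12 pan-leukocyte markers the sums were 276 to 317 RPKM over the d15 libraries and 233, 371, 409.8 and 282 RPKM in d36 replicates 1, 7, 8 and 9, and for the 15 macrophage and monocyte markers 54 to 148 RPKM over the d15 libraries and 74.9, 118, 186 and 65.5 RPKM in d36 replicates 1, 7, 8 and 9. The 13 lung epithelial markers went the other way, with 1288 to 3454 RPKM over the d15 libraries and 560.5, 366, 679.7 and 1156 RPKM in d36 replicates 1, 7, 8 and 9. At d15, 1 of the carcinoma, 3 of the fibroblast, 5 of the neutrophil, 3 of the B cell, 3 of the pan-leukocyte and 5 of the macrophage markers were at or under 0.1 RPKM in all 4 libraries, and at d36 none of them was. Pan-endothelial transcripts were high in both groups. Pecam1, the adhesion molecule CD31, stood at 723, 827, 615 and 712 RPKM at d15 and 564, 643, 678 and 619.7 RPKM at d36, and Cdh5, which encodes VE-cadherin, at 349, 359, 311 and 379.9 RPKM at d15 and 293, 248, 331 and 291 RPKM at d36. Their log2 changes of -0.20 ± 0.15 (SE) (95% interval -0.53 to 0.14) and -0.27 ± 0.14 (SE) did not pass (limma adjusted p = 0.526 and 0.321), and all 8 libraries carried the endothelial label's defining transcripts at high levels.

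More transcripts were called higher than lower in lungs with metastases, by a margin that depended on the scaling of the libraries. Values are RPKM, and a log2 change is the difference of the group means of log2(RPKM + 1), d36 minus d15, so that changes of transcripts near or under 1 RPKM are understated. With limma and Benjamini-Hochberg adjustment at a threshold of 0.05, 335 of 13249 entries (2.53%) were higher at d36 and 35 (0.264%) were lower, 370 (2.79%) in all. A change of at least 2-fold on this scale was reached by 161 of the higher and 12 of the lower entries. The libraries of the groups did not overlap for 1204 tested entries that were higher at d36 (9.09%) and 310 that were lower (2.34%). Over all tested entries the median log2 change was 0.06. When each library was centred on its median, the median moved by -0.15, and the calls became 128 higher (0.966%) and 78 lower (0.589%), so the share of higher calls went from 90.5% to 62.1%. At an unadjusted limma p under 0.05, 2104 entries were higher and 579 lower, against 1015 and 1777 after median centring and 1339 and 1372 after quantile normalization, so that at this looser threshold the excess of higher entries was not kept under either scaling. Without d36 replicate 9 the counts were 1567 higher (11.8%) and 307 lower (2.32%), and with all 16 libraries in the fit they were 1339 (10.1%) and 234 (1.77%). Without any single other library they were lower than with all 8, and they fell as far as 21 higher and 0 lower without d15 replicate 5, where 556 entries were lower at an unadjusted limma p under 0.05. At d0 the mean was nearer to d15 than to d36 for 319 of the 335 higher entries. For 21 of the 35 lower entries the mean at d0 was nearer to d36. The libraries of d0 did not overlap those of d15 for 15 of the 35, and they did not overlap those of d36 for 12.

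**Figure D1:**
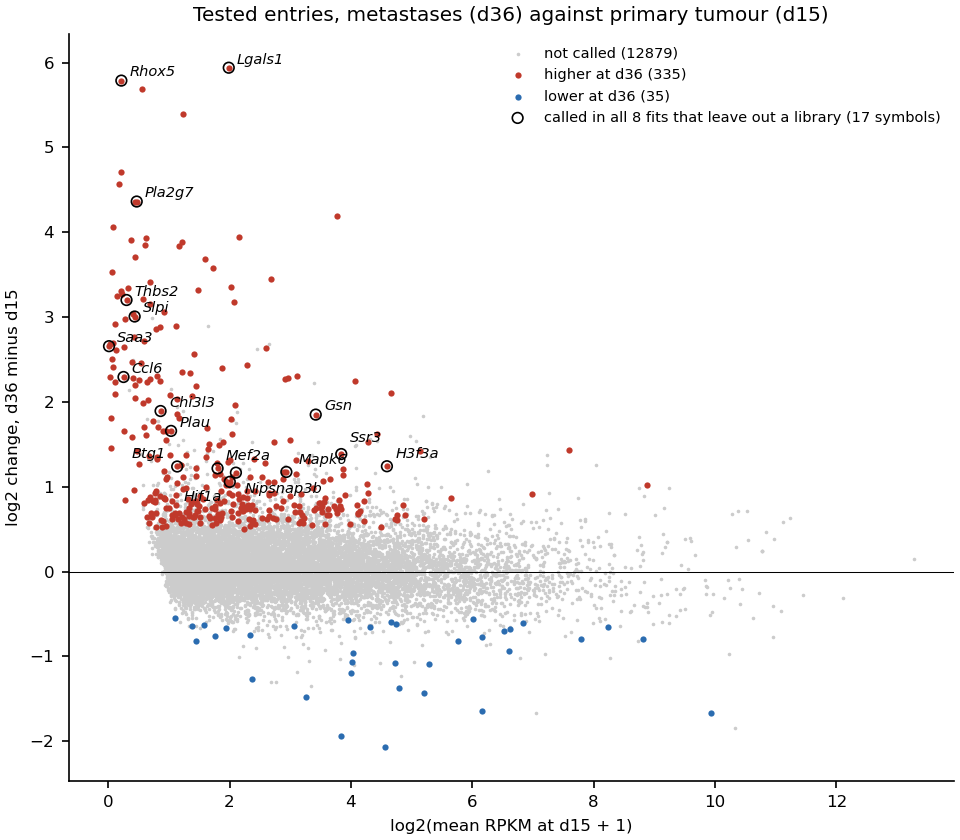
Log2 change from d15 to d36 (vertical axis) against log2 of the mean RPKM at d15 plus 1 (horizontal axis), 1 point per tested entry, with the 335 entries called higher in red, the 35 called lower in blue and the others in grey. Circles mark the 17 symbols called whichever library was left out, and the largest rises lie at low d15 levels.

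The largest rises on the log2 scale were of secreted and calcium-binding proteins and of a homeobox gene, most of them at low levels at d15. Lgals1 (chromosome 15, 78926725 to 78930465, GRCm38), which encodes the sugar-binding galectin-1, had 1.86, 3.83, 3.23 and 2.94 RPKM at d15 and 539, 515, 363 and 31.1 RPKM at d36. It rose by 5.94 ± 0.74 (SE) (limma adjusted p = 0.00599), and at 31.1 RPKM replicate 9 also lay above every d15 library. Rhox5 (X, 37804842 to 37808876), a homeobox gene of testis and placenta that many tumour lines express, had 0.0716, 0.421, 0.159 and 0 RPKM at d15 and 148, 97.8, 91.6 and 11.1 RPKM at d36. The rise was 5.79 ± 0.62 (SE) (limma adjusted p = 0.00504), and d0 and d22 were as low as d15, at 0.103 ± 0.0804 and 0.418 ± 0.327 RPKM (SD, n = 4). Mela, an antigen of retroviral origin that may share reads with related copies in the genome, had 0.0468, 0.0493, 0.139 and 0 RPKM at d15 and 47.9, 21, 28.2 and 2.12 RPKM at d36 (log2 change 4.07 ± 0.65 (SE), limma adjusted p = 0.0175). In all 3 the groups did not overlap, and replicate 9 was the lowest of d36.

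Chemokines made up 3 of the 10 largest rises. Ccl2 (chromosome 11, 82035571 to 82037453), which draws monocytes, had 0.0531, 0.885, 0.769 and 0.191 RPKM at d15 and 180.1, 230.04, 100.5 and 5.87 RPKM at d36, a log2 change of 5.68 ± 0.89 (SE) (limma adjusted p = 0.0156). Ccl7 (chromosome 11, 82045712 to 82047525), a neighbour of Ccl2 with a related role, had 0.0267, 0.0655, 0.417 and 0 RPKM at d15 and 53, 60.8, 39.9 and 2.62 RPKM at d36 (log2 change 4.57 ± 0.73 (SE), limma adjusted p = 0.017). Cxcl1 (chromosome 5, 90891241 to 90893115), which draws neutrophils, had 1.2, 0.999, 1.91 and 1.31 RPKM at d15 and 236, 406, 121 and 6.79 RPKM at d36 (log2 change 5.39 ± 0.95 (SE), limma adjusted p = 0.0239). Replicates 1, 7 and 8 of d36 each held at least 39.9 RPKM of all 3 chemokines, and replicate 9 held a few RPKM of each.

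S100a4 and S100a6, neighbouring genes of calcium-binding proteins on chromosome 3 (90603771 to 90606045 and 90612882 to 90624181), rose together. S100a4 had 0.0429, 0.189, 0.303 and 0.0858 RPKM at d15 and 53.9, 92.8, 34.1 and 3.6 RPKM at d36 (log2 change 4.71 ± 0.72 (SE), limma adjusted p = 0.0147). S100a6, which was already present at d15, had 10.4, 15, 10.8 and 14.4 RPKM at d15 and 483, 534, 329.8 and 42.7 RPKM at d36 (log2 change 4.2 ± 0.64 (SE), limma adjusted p = 0.0147). Serpinf1 (chromosome 11, 75409769 to 75422701), the gene of the secreted pigment epithelium-derived factor that restrains vessel growth, had 0.152, 0.504, 0.334 and 0.416 RPKM at d15 and 50.7, 54.1, 50.2 and 3.01 RPKM at d36 (log2 change 4.36 ± 0.70 (SE), limma adjusted p = 0.0175). Pla2g7 (chromosome 17, 43568098 to 43612201), whose product inactivates platelet-activating factor, had 0.139, 0.432, 0.665 and 0.307 RPKM at d15 and 50.05, 36, 44.5 and 6.38 RPKM at d36 (log2 change 4.36 ± 0.50 (SE), limma adjusted p = 0.00504). For these 4 genes too, the lack of overlap was set by the choice. Of the 10 largest rises, Lgals1, Rhox5 and Pla2g7 passed whichever of the 8 libraries was left out. The other 7 passed in 2 to 4 of the 8 fits with a library left out. Carcinoma markers, Rhox5 itself among them, and fibroblast markers were highest in the same 3 libraries. The part of carcinoma and fibroblast RNA in these rises was not tested.

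**Figure D2:**
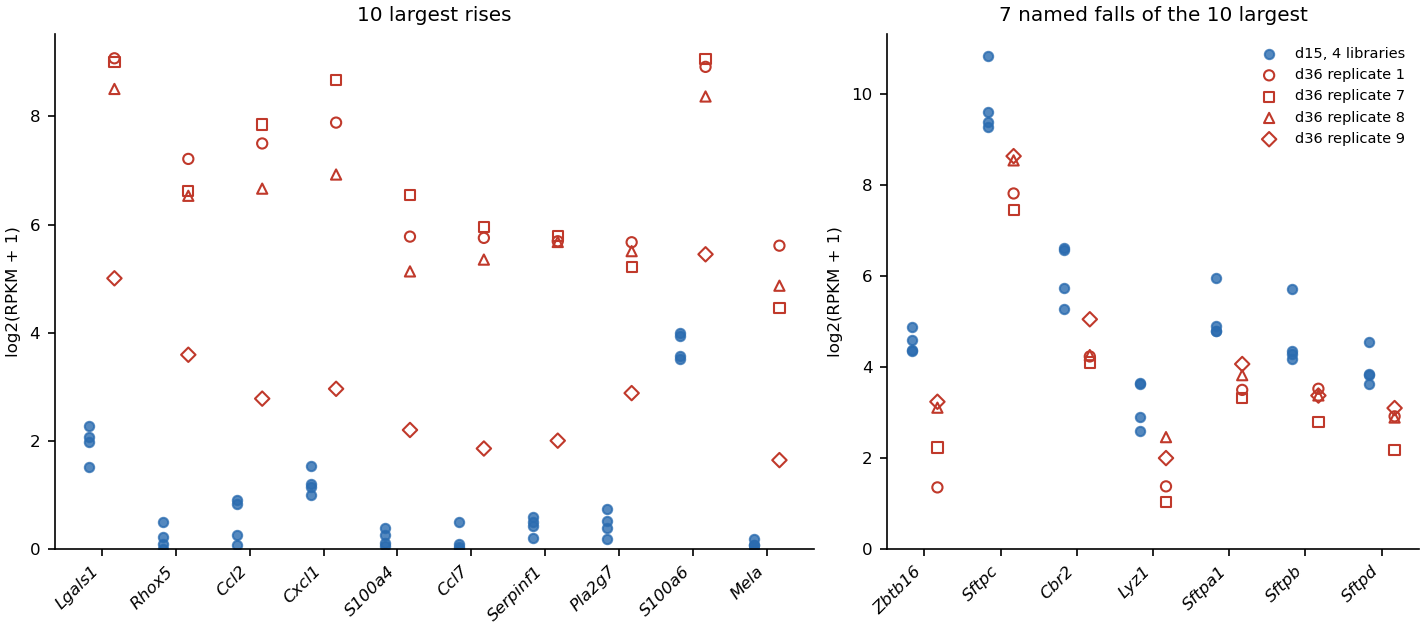
Level on the log2(RPKM + 1) scale (vertical axis) in each of the 8 libraries for the 10 largest rises (left) and the 7 of the 10 largest falls that have a gene symbol (right), with filled points for d15 and open symbols for each d36 replicate. All were chosen among calls without overlap between the groups. Replicate 9 lies between the d15 libraries and the other d36 libraries in all 10 rises, and below every d15 library in the 7 falls.

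The rises formed no single pattern across the d36 libraries. For each of the 335 higher entries, the change in replicate 9 was set against the mean change in replicates 1, 7 and 8, in RPKM over the d15 mean. The median share was 37.4%, with an interquartile range of 16.1 to 80.9%. It was under 20% for 101 entries and over 50% for 140. Replicate 9 was the lowest d36 library for 70.4% of the higher entries, against 36.7% of all tested entries. For the 35 lower entries the median share was 94.2%, and 34 of them had over 50%. These shares use the values that made the calls, and are given as a description.

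**Figure D3:**
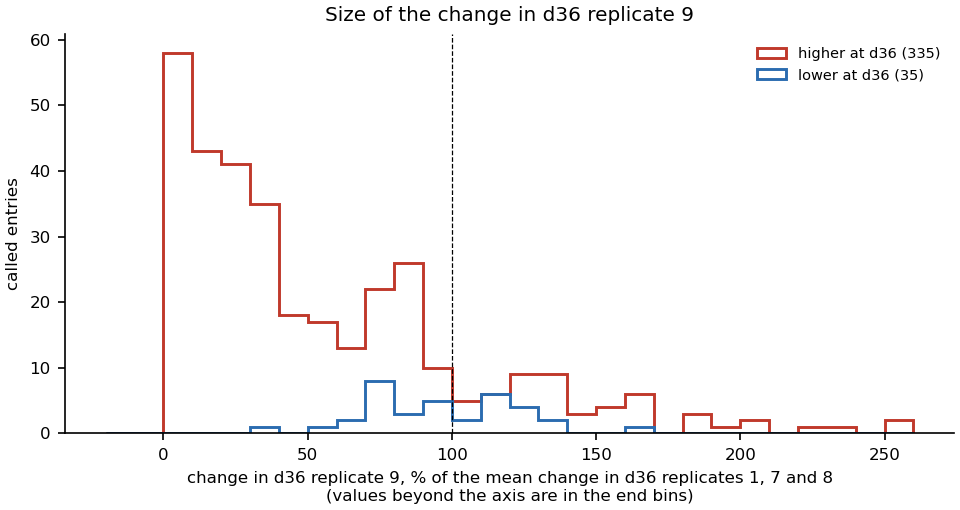
Histogram of called entries (vertical axis, number) by the change in d36 replicate 9 as a percentage of the mean change in d36 replicates 1, 7 and 8 (horizontal axis, from RPKM over the d15 mean; the dashed line marks an equal change). The 335 higher entries (red) spread widely, with 101 under 20%, and the 35 lower entries (blue) centre near the line, with a median of 94.2%.

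A smaller group of rises passed without any single library. Of all called entries, 19 passed in each of the 8 fits with a library left out, all higher at d36, and 17 of them have a gene symbol (a group singled out after its values were seen). In 11 of the 17 the change in replicate 9 was over 50% of that in the other d36 libraries, and in 4 it was under 20%. Slpi (chromosome 2, 164354070 to 164389095), which encodes a secreted inhibitor of leukocyte proteases, had 0.0244, 0.611, 0.29 and 0.488 RPKM at d15 and 13.9, 7.5, 13.5 and 6.2 RPKM at d36. It rose by 3.01 ± 0.25 (SE) (limma adjusted p = 0.00112). Ssr3 (chromosome 3, 65379655 to 65392623), a subunit of the complex that assists protein entry into the endoplasmic reticulum, had 15.1, 12.3, 12.9 and 13 RPKM at d15 and 37.8, 39.5, 35.1 and 33.2 RPKM at d36 (log2 change 1.39 ± 0.12 (SE), limma adjusted p = 0.00112). The d22 level of Ssr3, 26.7 ± 0.535 RPKM (SD, n = 4), lay between the groups. Saa3 (chromosome 7, 46711998 to 46715700), an acute-phase serum amyloid gene, was listed at 0 in 3 of the d15 libraries and had 0.0403, 0, 0 and 0 RPKM at d15 and 2.75, 4.57, 12.9 and 4.66 RPKM at d36 (log2 change 2.66 ± 0.32 (SE), limma adjusted p = 0.00504). Slpi and Saa3 were under 1 RPKM in every d15 library and were tested only through d36. The filter therefore set their direction and lack of overlap in advance.

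Regulators of oxygen response, growth and chromatin were among these 17. Hif1a (chromosome 12, 73901375 to 73947530), the oxygen-regulated transcription factor subunit, had 3.48, 3.05, 2.84 and 2.68 RPKM at d15 and 7.8, 6.79, 7.97 and 6.84 RPKM at d36 (log2 change 1.06 ± 0.13 (SE), limma adjusted p = 0.00504). Mef2a, a transcription factor of vessels and muscle, had 2.47, 2.11, 2.8 and 2.59 RPKM at d15 and 6.59, 8.85, 6.32 and 6.82 RPKM at d36 (log2 change 1.22 ± 0.14 (SE), limma adjusted p = 0.00504). Mapk6, the kinase ERK3, had 6.08, 7.09, 7.32 and 6.13 RPKM at d15 and 18.5, 16.1, 16.2 and 14.4 RPKM at d36 (log2 change 1.17 ± 0.13 (SE), limma adjusted p = 0.00504). In these 3 genes the 4 d36 libraries were close to each other, replicate 9 included. Btg1, a brake on cell division, had 1.25, 1.11, 1.29 and 1.14 RPKM at d15 and 3.38, 4.33, 5.63 and 3.69 RPKM at d36 (log2 change 1.24 ± 0.15 (SE), limma adjusted p = 0.00504). H3f3a, a gene of histone H3.3 that shares sequence with processed copies, had 29.7, 23.8, 17.3 and 21.8 RPKM at d15 and 52.5, 51.1, 54.9 and 62.6 RPKM at d36 (log2 change 1.24 ± 0.16 (SE), limma adjusted p = 0.0067). Nipsnap3b had 4.44, 3.06, 2.85 and 2.87 RPKM at d15 and 7.9, 8.73, 7.97 and 9.73 RPKM at d36 (log2 change 1.17 ± 0.15 (SE), limma adjusted p = 0.00669). For H3f3a and Nipsnap3b replicate 9 was the highest of the 8 libraries.

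The remaining members act outside the cell, on the cytoskeleton or in myeloid cells. Plau, the urokinase that activates plasminogen, had 0.676, 0.958, 1.23 and 1.34 RPKM at d15 and 6.72, 4.44, 7.08 and 4.003 RPKM at d36 (log2 change 1.66 ± 0.19 (SE), limma adjusted p = 0.00504). Gsn, which encodes the actin-severing gelsolin, had 8.27, 8.78, 11.3 and 10.5 RPKM at d15 and 45.5, 43.2, 46 and 21.4 RPKM at d36 (log2 change 1.85 ± 0.23 (SE), limma adjusted p = 0.00599). Thbs2, the matricellular thrombospondin-2, had 0.132, 0.17, 0.336 and 0.296 RPKM at d15 and 21.1, 10.7, 14.7 and 3.06 RPKM at d36 (log2 change 3.2 ± 0.41 (SE), limma adjusted p = 0.00669). The d36 libraries of Thbs2 ran over a wider range than those of Plau, and in neither gene did the groups overlap. For Thbs2, under 1 RPKM in every d15 library, the filter set this in advance. The chemokine Ccl6 had 0.0727, 0.0712, 0.45 and 0.174 RPKM at d15 and 3.23, 5.76, 9.03 and 2.94 RPKM at d36 (log2 change 2.29 ± 0.27 (SE), limma adjusted p = 0.00504). Ccl6 was also under 1 RPKM in every d15 library, so the filter set its direction and lack of overlap in advance. Chi3l3, a chitinase-like product of macrophages with near-identical relatives, had 0, 0.964, 1.23 and 1.08 RPKM at d15 and 4.8, 5.58, 6.79 and 4.84 RPKM at d36 (log2 change 1.89 ± 0.24 (SE), limma adjusted p = 0.00658). The sum of the macrophage markers given above, Chi3l3 among them, was also highest in d36 replicate 8. The part of macrophage RNA in the rises of Ccl6 and Chi3l3 was not tested.

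**Figure D4:**
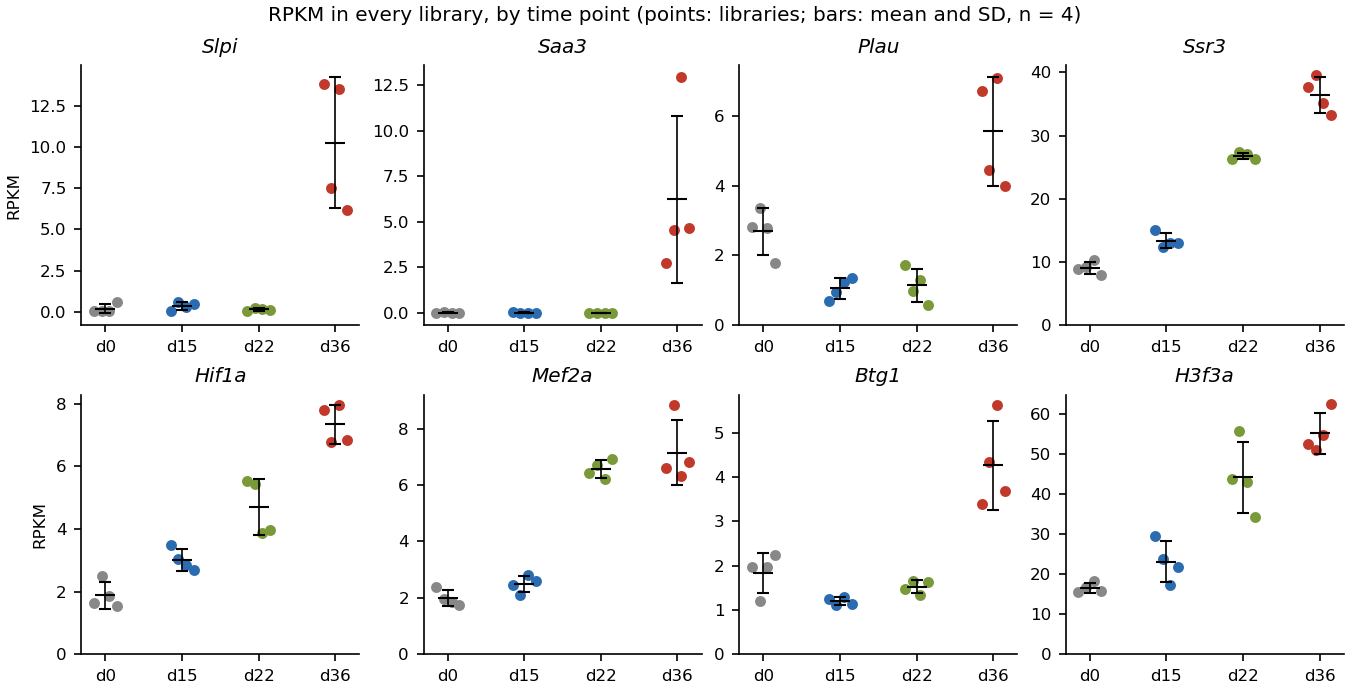
RPKM (vertical axis, linear) in all 16 libraries by time point for 8 of the genes that passed whichever library was left out; points are libraries and bars the mean and SD of 4. In each panel the 4 d36 libraries lie above the 4 d15 libraries, and the d22 libraries of Ssr3, Mef2a and H3f3a lie above d15 as well. For Slpi and Saa3 the filter set the order of d15 and d36 in advance.

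The falls were led by a glucocorticoid-induced transcription factor and by genes of the alveolar epithelium. Zbtb16 (chromosome 9, 48654297 to 48836222), which encodes the zinc finger factor PLZF, had 23, 19.5, 28.4 and 19.6 RPKM at d15 and 1.56, 3.7, 7.61 and 8.42 RPKM at d36. It fell, with a log2 change of -2.07 ± 0.35 (SE) (limma adjusted p = 0.0218), and d0 and d22, at 9.84 ± 1.34 and 9.16 ± 3.21 RPKM (SD, n = 4), lay between the groups. Sftpc (chromosome 14, 70520949 to 70524081), the surfactant protein C gene of type 2 alveolar cells, had 619, 1827, 673 and 779 RPKM at d15 and 224, 173, 372 and 397 RPKM at d36 (log2 change -1.67 ± 0.36 (SE), limma adjusted p = 0.0397). Its d0 level, 423 ± 80.1 RPKM (SD, n = 4), was nearer to d36 than to d15. Cbr2 (chromosome 11, 120729489 to 120732114), a carbonyl reductase abundant in lung, had 94, 97.6, 52.1 and 37.9 RPKM at d15 and 17.8, 16.2, 18.2 and 32.1 RPKM at d36 (log2 change -1.64 ± 0.31 (SE), limma adjusted p = 0.0259). Lyz1 (chromosome 10, 117287797 to 117292868), a lysozyme gene with a close relative, Lyz2, had 5.05, 11.4, 11.6 and 6.52 RPKM at d15 and 1.6, 1.05, 4.5 and 2.99 RPKM at d36 (log2 change -1.48 ± 0.33 (SE), limma adjusted p = 0.0417). The 10 largest falls were likewise chosen among calls without overlap, so the lack of overlap in these genes was set by the choice.

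The other surfactant genes moved with Sftpc. Sftpa1 had 26.8, 61.4, 26.6 and 28.9 RPKM at d15 and 10.3, 9.02, 13.1 and 15.7 RPKM at d36 (log2 change -1.43 ± 0.27 (SE), limma adjusted p = 0.0241). Sftpb had 17.2, 51.8, 18.5 and 19.5 RPKM at d15 and 10.5, 5.95, 9.38 and 9.36 RPKM at d36 (log2 change -1.37 ± 0.31 (SE), limma adjusted p = 0.0461). Sftpd had 13.3, 22.5, 11.3 and 13.3 RPKM at d15 and 6.55, 3.52, 6.41 and 7.56 RPKM at d36 (log2 change -1.19 ± 0.24 (SE), limma adjusted p = 0.0305). For each of these 3 the d15 replicate 4 was the highest of all 8 libraries. Of the 15 lung epithelial markers, 13 were on the table and 11 were tested; 4 fell, the surfactant genes, and none rose (median log2 change -1.19); 6 fell without replicate 9, and 2 with no filter on low values. Their d0 levels of 14 ± 4.46, 11.4 ± 2.55 and 6.5 ± 1.55 RPKM (SD, n = 4) were nearer to d36. The epithelial marker sum given above includes these surfactant genes, and the part of epithelial RNA in the sorted cells was not tested. The remaining 3 of the 10 largest falls carry only clone identifiers. Each of the 7 named falls lost its call in at least 4 of the 8 fits with a library left out.

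Lrg1 (chromosome 17, 56119678 to 56122001), which encodes a secreted glycoprotein that acts on endothelial TGF-beta signalling, had 271, 179, 418 and 363 RPKM at d15 and 104, 499, 170.3 and 48.8 RPKM at d36. The log2 change was -1.01 ± 0.57 (SE) (95% interval -2.26 to 0.24; limma adjusted p = 0.35), and the groups overlapped. All 8 libraries lay above the d0 mean, which was 37.9 ± 9.87 RPKM, and the d22 mean was 75.3 ± 24.6 RPKM (SD, n = 4). Replicate 7 of d36 held the highest value of the 8 libraries and replicate 9 the lowest.

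Among genes that mark endothelium and its vessel types few passed, and for some lists the d36 libraries were divided. Counts of every list stand beside the shares over all tested entries, 2.53% higher and 0.264% lower. Without replicate 9 these shares were 11.8% and 2.32%, so small counts without it are near the share of all entries. None of the 18 pan-endothelial genes passed limma (0 higher and 3 lower at an unadjusted p under 0.05; median log2 change -0.24, 15 of 18 negative). Without d36 replicate 9, Robo4 and Esam fell. Robo4, a guidance receptor that keeps vessels tight, had 103, 142, 144 and 132 RPKM at d15 and 88.7, 68.4, 98.3 and 98.9 RPKM at d36 (log2 change -0.55 ± 0.16 (SE), limma adjusted p = 0.0962; 0.0337 without replicate 9). Tie1, an orphan receptor of the angiopoietin system, had 368, 362, 349 and 464 RPKM at d15 and 299, 235, 286 and 284 RPKM at d36 (log2 change -0.48 ± 0.15 (SE), limma adjusted p = 0.109), and the groups did not overlap. Esam, a junctional adhesion molecule, had 1006, 1074, 886 and 986 RPKM at d15 and 645, 635, 779 and 785 RPKM at d36 (log2 change -0.48 ± 0.16 (SE), limma adjusted p = 0.124; 0.04998 without replicate 9), also without overlap. Ramp2, the partner of the adrenomedullin receptor, had 2485, 2012, 2720.1 and 2446 RPKM at d15 and 3639, 2595, 3029.9 and 6805 RPKM at d36 (log2 change 0.64 ± 0.29 (SE), limma adjusted p = 0.252), and replicate 9 was the highest.

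Replicate 9 of d36 had the highest levels of aerocyte genes. None of 12 tested aerocyte genes passed limma, with or without replicate 9 (4 higher and 0 lower at an unadjusted p under 0.05; median log2 change 0.55). Their median differences from the d15 mean were -0.17, 0.21, 0.52 and 1.32 in replicates 1, 7, 8 and 9. Ednrb, the endothelin receptor B, had 28.3, 44.4, 53.7 and 33.5 RPKM at d15 and 41.4, 51.4, 75.3 and 119 RPKM at d36 (log2 change 0.76 ± 0.30 (SE), limma adjusted p = 0.196). Kitl, the ligand of the receptor Kit, had 22.9, 28.2, 24.6 and 21.6 RPKM at d15 and 30.3, 31.9, 35.1 and 51.6 RPKM at d36 (log2 change 0.57 ± 0.17 (SE), limma adjusted p = 0.103). The sulfotransferase gene Chst1 had 5.07, 6.02, 6.9 and 5.04 RPKM at d15 and 5.13, 10.2, 11.4 and 17.6 RPKM at d36 (log2 change 0.74 ± 0.28 (SE), limma adjusted p = 0.169). For the defining marker Car4, a membrane carbonic anhydrase, the values were 32.2, 40.7, 41.5 and 31.2 RPKM at d15 and 28.4, 35.8, 46.7 and 93.2 RPKM at d36 (log2 change 0.34 ± 0.30 (SE), limma adjusted p = 0.575). In Ednrb, Chst1 and Car4 the groups overlapped, and in all 4 genes replicate 9 was the highest of the 8 libraries.

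Of 9 general capillary genes, 1 fell and none rose (median log2 change -0.41; the call was lost with no filter on low values). It was Gpihbp1, which anchors lipoprotein lipase in capillaries, at 504, 509, 360.03 and 425 RPKM at d15 and 203, 259, 282 and 291 RPKM at d36 (log2 change -0.80 ± 0.17 (SE), limma adjusted p = 0.039), without overlap. None of 12 venous genes passed limma (0 higher and 3 lower at an unadjusted p under 0.05; median -0.27). Without replicate 9, Nr2f2 and Vcam1 rose and Ephb4 fell, against 11.8% and 2.32% of all tested entries. The median differences of the 12 were -0.27, 0.65, -0.40 and -0.80 in replicates 1, 7, 8 and 9. Ephb4, the receptor that defines veins, had 64.5, 51.1, 48.1 and 63.9 RPKM at d15 and 35.1, 41.1, 43.3 and 40.5 RPKM at d36 (log2 change -0.49 ± 0.14 (SE), limma adjusted p = 0.0858), without overlap. Vwf, the von Willebrand factor, had 61.5, 102, 125 and 101 RPKM at d15 and 69, 67.7, 72.6 and 37.2 RPKM at d36 (log2 change -0.66 ± 0.25 (SE), limma adjusted p = 0.179), and replicate 9 was the lowest. Amigo2, an adhesion protein, had 13.5, 14.2, 11.4 and 13.6 RPKM at d15 and 10.8, 8.77, 9.56 and 7.67 RPKM at d36 (log2 change -0.48 ± 0.14 (SE), limma adjusted p = 0.0852; 0.0446 after centring). Flt4, the receptor VEGFR-3 of lymphatic and some blood vessels, had 7.2, 9.43, 10.9 and 9.83 RPKM at d15 and 4.92, 6.62, 5.99 and 4.45 RPKM at d36 (log2 change -0.67 ± 0.16 (SE), limma adjusted p = 0.0521; 0.02995 without replicate 9).

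Of 17 arterial and Notch genes, 1 rose (median log2 change -0.22). It was Unc5b, a netrin receptor of arteries and tip cells, at 3.93, 4.35, 4.04 and 4.73 RPKM at d15 and 6.55, 7.46, 7.22 and 6.71 RPKM at d36 (log2 change 0.60 ± 0.12 (SE), limma adjusted p = 0.0303; 0.0848 after centring), and the 4 d36 libraries were within 1 RPKM of each other. The d0 level of Unc5b was 7.26 ± 0.708 RPKM (SD, n = 4), close to that of d36. The Notch ligand Dll4 had 107, 179, 138 and 130.04 RPKM at d15 and 109, 96.6, 102 and 111 RPKM at d36 (log2 change -0.38 ± 0.16 (SE), limma adjusted p = 0.216). Of 15 junction genes, 1 rose: Gja1, the gap junction protein connexin 43, at 2.63, 7.92, 5.36 and 4.42 RPKM at d15 and 57.7, 41, 60.3 and 10.1 RPKM at d36 (log2 change 2.64 ± 0.48 (SE), limma adjusted p = 0.0241), with replicate 9 the lowest of d36 and still above d15.

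Of 20 tested angiogenesis genes, 3 rose and none fell (median log2 change -0.05): Unc5b, Nid1 and Adm. Nid1, which links the basement membrane, had 17, 18.3, 16.6 and 18.2 RPKM at d15 and 36.2, 35.7, 37.2 and 21.8 RPKM at d36 (log2 change 0.83 ± 0.17 (SE), limma adjusted p = 0.0317). Adm, the gene of the vasodilator adrenomedullin, had 1.36, 1.59, 2.27 and 1.49 RPKM at d15 and 25.4, 21.5, 32.4 and 2.09 RPKM at d36 (log2 change 2.57 ± 0.60 (SE), limma adjusted p = 0.04998). Replicate 9 lay among the d15 libraries for Adm, and after centring none of the 3 passed (limma adjusted p = 0.0848, 0.0606 and 0.0682). Adm was the only one of 17 vasoactive genes that passed; 2 rose and 1 fell without replicate 9, and Adm lost its call with no filter on low values. Ace, the angiotensin-converting enzyme of lung capillaries, had 462, 519, 532 and 505 RPKM at d15 and 313, 340.1, 389 and 277 RPKM at d36 (log2 change -0.62 ± 0.15 (SE), limma adjusted p = 0.0521; 0.032 without replicate 9), without overlap. Ptgs2, the inducible cyclooxygenase, had 2.15, 3.69, 4.15 and 2.61 RPKM at d15 and 23.6, 18.7, 19.1 and 3.01 RPKM at d36 (log2 change 1.79 ± 0.48 (SE), limma adjusted p = 0.0744; 5.02e-06 without replicate 9).

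Of 25 tested TGF-beta and BMP genes, 2 rose and none fell (median log2 change 0.12). The 2 became 5 without replicate 9, when 1 also fell, and 1 with no filter on low values. Without replicate 9, 11.8% of all tested entries rose and 2.32% fell. Tgfb3 was under 1 RPKM in every d15 library and so was tested only through d36. The ligand gene Tgfb3 had 0.552, 0.354, 0.551 and 0.703 RPKM at d15 and 5.14, 5.04, 5.08 and 1.15 RPKM at d36 (log2 change 1.61 ± 0.30 (SE), limma adjusted p = 0.0254). Ltbp1, which stores the latent ligand in matrix, had 0.793, 0.804, 0.918 and 1.25 RPKM at d15 and 8.25, 6.68, 5.32 and 1.29 RPKM at d36 (log2 change 1.55 ± 0.36 (SE), limma adjusted p = 0.0476; 0.0706 after centring). In both genes replicate 9 was the lowest of d36. Acvrl1, the endothelial receptor ALK1, had 42.5, 35.2, 33 and 47.4 RPKM at d15 and 26.4, 29.2, 25.4 and 29.9 RPKM at d36 (log2 change -0.49 ± 0.14 (SE), limma adjusted p = 0.092), without overlap and lower at d36.

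**Figure D5:**
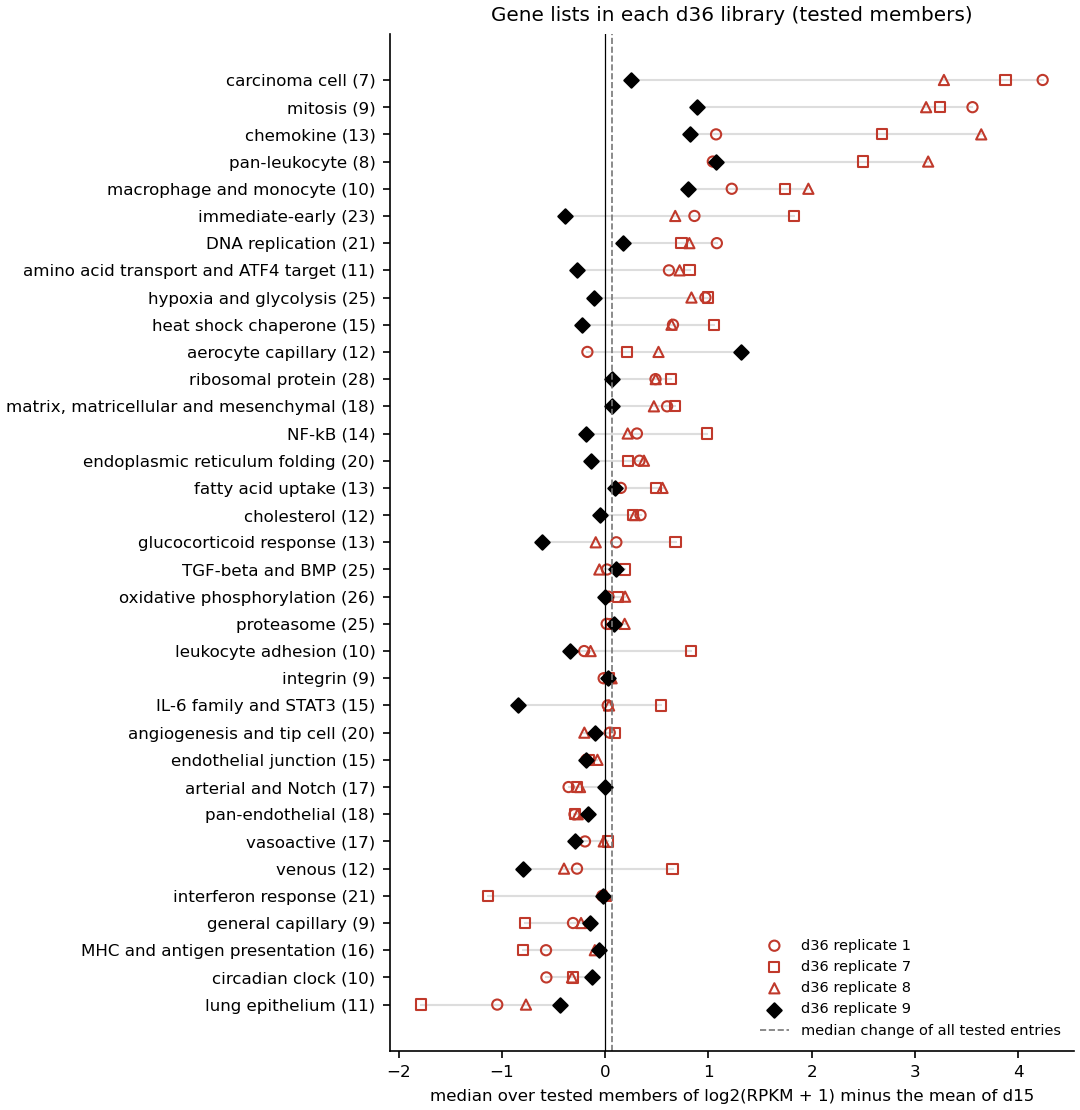
Median over the tested members of each gene list (rows, number of members in brackets) of the difference from the d15 mean on the log2(RPKM + 1) scale (horizontal axis), with 1 symbol per d36 library and a dashed line at the median of all tested entries. Carcinoma cell and mitosis genes are lowest in replicate 9 of the d36 libraries (0.25 and 0.89), and aerocyte genes are highest there (1.32).

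Among the inflammatory lists the calls were chemokines and Saa3. Of 25 chemokine genes, 17 were on the table and 13 were tested; 5 rose and none fell. Over all 17 the median log2 change was 1.13, the groups did not overlap with d36 higher for 9 (9.89% of all entries of the table), and 4 passed the filter only through d36. Beside the 3 chemokines above, Cxcl2, which draws neutrophils, had 0.13, 0.0424, 0.642 and 0.389 RPKM at d15 and 19.3, 48.1, 32 and 3.21 RPKM at d36 (log2 change 3.91 ± 0.60 (SE), limma adjusted p = 0.0147), and it was tested only through d36. Without replicate 9, 8 of the 13 rose. None of 10 leukocyte adhesion genes passed limma (0 higher and 0 lower at an unadjusted p under 0.05; median log2 change 0.03; 1 rose without replicate 9), and none of 14 NF-kB genes did (3 higher and 0 lower at an unadjusted p under 0.05; median 0.32; 3 rose without replicate 9). The share of all tested entries that rose without replicate 9 was 11.8%. Nfkbiz, an inducible regulator of NF-kB, had 12, 11.6, 24.4 and 15 RPKM at d15 and 56.2, 108, 46.6 and 12.6 RPKM at d36 (log2 change 1.48 ± 0.51 (SE), limma adjusted p = 0.137), and replicate 9 lay among the d15 libraries. Of 15 tested genes of the IL-6 family and STAT3, 1 rose, Saa3 (median -0.03), which was tested only through d36, and without replicate 9 there were 3 that rose and 1 that fell. The sums of the leukocyte markers, which can hold chemokine transcripts of their own, are given above, and their part was not tested.

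Transcripts of dividing cells were higher in every d36 library. All 30 mitosis genes were on the table, and their sum ran from 7.73 to 9.83 RPKM over the d15 libraries and reached 324, 195, 221 and 27.2 RPKM in d36 replicates 1, 7, 8 and 9. All 30 were above every d15 library in each of replicates 1, 7 and 8. In replicate 9, 28 were too, so that 28 of 30 did not overlap, against 9.89% of all entries of the table. Only 9 were high enough to be tested, 6 of them only through d36, and 8 of the 9 rose (2.53% of all tested entries). Top2a, the topoisomerase that untangles chromosomes, had 0.08001, 0.104, 0.218 and 0.288 RPKM at d15 and 19.6, 12.1, 15.6 and 2.68 RPKM at d36 (log2 change 3.28 ± 0.43 (SE), limma adjusted p = 0.0075). Ube2c, which works with the anaphase-promoting complex, had 0.311, 0.158, 0.29 and 0.689 RPKM at d15 and 46.8, 23.8, 25.4 and 2.06 RPKM at d36 (log2 change 3.7 ± 0.66 (SE), limma adjusted p = 0.0241). Prc1, which bundles microtubules of the midzone, had 0.158, 0.148, 0.276 and 0.273 RPKM at d15 and 20.3, 10.5, 14 and 1.3 RPKM at d36 (log2 change 2.98 ± 0.54 (SE), limma adjusted p = 0.0241). Racgap1, a part of the centralspindlin complex of cytokinesis, had 0.53, 0.183, 0.405 and 0.249 RPKM at d15 and 14.7, 12.1, 10.5 and 1.87 RPKM at d36 (log2 change 2.77 ± 0.44 (SE), limma adjusted p = 0.0159). Replicate 9 was the lowest of d36 in these 4 genes. Each of the 4 was under 1 RPKM in every d15 library and was tested only through d36. Their direction and lack of overlap were therefore set by the filter. The d22 means of Top2a and Ube2c were 1.15 ± 1.06 and 1.59 ± 1.16 RPKM (SD, n = 4).

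Cell cycle genes that peak in mitosis are known for promoters with CCAAT boxes, bound by NF-Y, and a cell cycle homology region with the core TTTGAA, bound by the DREAM and MuvB complexes. The promoters of the 4 mitosis genes named are shown because they moved together and hold both motifs within 250 bases before to 50 bases after the start. They are RefSeq promoters (GRCm38.p6), written 5′ to 3′ on the strand of the gene, and capitals mark CCAAT or TTTGAA on either strand (ATTGG or TTCAAA on the opposite strand; neighbouring matches can overlap). They come from chr11:99024140-99024439 on the minus strand (Top2a), chr2:164769679-164769978 on the plus strand (Ube2c), chr7:80294201-80294500 on the plus strand (Prc1) and chr15:99651607-99651906 on the minus strand (Racgap1).
Top2a: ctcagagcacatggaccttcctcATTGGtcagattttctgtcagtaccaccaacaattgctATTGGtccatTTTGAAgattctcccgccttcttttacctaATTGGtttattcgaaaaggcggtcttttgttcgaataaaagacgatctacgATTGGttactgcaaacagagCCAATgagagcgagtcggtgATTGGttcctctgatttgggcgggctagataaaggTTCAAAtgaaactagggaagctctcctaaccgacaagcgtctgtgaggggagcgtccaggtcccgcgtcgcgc
Ube2c: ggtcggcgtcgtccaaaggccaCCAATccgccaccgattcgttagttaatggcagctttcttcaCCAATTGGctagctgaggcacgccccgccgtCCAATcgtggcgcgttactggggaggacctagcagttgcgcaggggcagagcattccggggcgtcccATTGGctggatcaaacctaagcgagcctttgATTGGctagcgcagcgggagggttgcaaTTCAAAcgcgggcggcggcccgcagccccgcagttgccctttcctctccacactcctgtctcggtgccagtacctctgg
Prc1: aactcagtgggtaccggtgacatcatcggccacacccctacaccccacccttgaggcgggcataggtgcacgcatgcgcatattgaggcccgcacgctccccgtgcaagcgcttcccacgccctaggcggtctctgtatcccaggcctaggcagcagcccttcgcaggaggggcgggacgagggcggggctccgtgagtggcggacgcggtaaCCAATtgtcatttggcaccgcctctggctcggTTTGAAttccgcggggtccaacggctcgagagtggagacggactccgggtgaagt
Racgap1: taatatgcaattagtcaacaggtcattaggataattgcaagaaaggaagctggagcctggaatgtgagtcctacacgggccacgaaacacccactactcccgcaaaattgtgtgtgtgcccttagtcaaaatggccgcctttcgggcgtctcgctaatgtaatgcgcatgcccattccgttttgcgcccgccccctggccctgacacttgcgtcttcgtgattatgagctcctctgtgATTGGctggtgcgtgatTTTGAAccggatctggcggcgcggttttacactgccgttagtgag

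In Prc1 the CCAAT match began at -37 and the TTTGAA match at -5 from the start site, and in Racgap1 the matches began at -12 and 6. Top2a held 6 CCAAT and 2 TTTGAA matches, and Ube2c held 6 and 1. RefSeq promoters were matched for 26 of the 30 mitosis genes. CCAAT was found in 21 of them (80.8%, against 37.9% of 27025 promoters of the same length), TTTGAA in 20 (76.9% against 18.1%) and both in 18 (69.2% against 7.12%). A match describes the letters in the window, not a site or a cause.

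Genes of DNA replication followed at smaller sizes. Of 30, 28 were on the table and 21 were tested; 6 rose and none fell, the median log2 change over the 28 was 0.69, and 19 of the 21 rose without replicate 9. Of the 21, 3 passed the filter only through d36, Gins2 and Rrm2 among them, and all 3 are among the 6. Gins2, a part of the replicative helicase, had 0.619, 0.919, 0.995 and 0.981 RPKM at d15 and 7.57, 5.48, 6.18 and 2.07 RPKM at d36 (log2 change 1.66 ± 0.27 (SE), limma adjusted p = 0.018). Cdc45, its partner, had 0.798, 1.31, 0.867 and 0.744 RPKM at d15 and 9.54, 4.55, 6.83 and 1.94 RPKM at d36 (log2 change 1.66 ± 0.32 (SE), limma adjusted p = 0.0279). Rfc4, a subunit of the clamp loader, had 5.39, 5.93, 5.38 and 4.35 RPKM at d15 and 11.3, 12.7, 12.4 and 7.8 RPKM at d36 (log2 change 0.93 ± 0.16 (SE), limma adjusted p = 0.0241). All 3 were above every d15 library in each d36 library, which the filter set in advance for Gins2. Rrm2, a subunit of ribonucleotide reductase, had 0.117, 0.287, 0.621 and 0.211 RPKM at d15 and 16.3, 6.2, 7.9 and 1.4 RPKM at d36 (log2 change 2.47 ± 0.46 (SE), limma adjusted p = 0.0251). The carcinoma marker sum was likewise highest in replicate 1 and lowest in replicate 9 of d36, and its part in the mitosis and replication genes was not tested.

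In protein synthesis and turnover few genes passed. All 28 tested ribosomal protein genes had positive log2 changes (median 0.43), of which 1 passed, Rpl13 (whose processed copies can share reads), at 12.6, 10.4, 9.17 and 10.3 RPKM at d15 and 25.9, 30.8, 23.6 and 15.2 RPKM at d36 (log2 change 1.07 ± 0.20 (SE), limma adjusted p = 0.0241). Without replicate 9, 16 of the 28 rose. After centring the median was 0.28 and 1 passed. None of 26 oxidative phosphorylation genes encoded in the nucleus passed limma (1 higher and 0 lower at an unadjusted p under 0.05; median 0.10; 1 rose without replicate 9) and none of 25 proteasome genes did (3 higher and 0 lower at an unadjusted p under 0.05; median 0.07; 3 rose without replicate 9), both close to the median of all entries. The share of all tested entries that rose without replicate 9 was 11.8%. Of 20 genes of folding and import in the endoplasmic reticulum, 1 rose, Ssr3 (median 0.20), and 4 did without replicate 9.

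Of 11 tested genes of amino acid transport and the stress factor ATF4, 1 rose (median log2 change 0.66), and it was tested only through d36. Without replicate 9, 6 rose and 1 fell. The gene that rose with all libraries was Phgdh, the first enzyme of serine synthesis, at 0.131, 0.114, 0.0757 and 0 RPKM at d15 and 15.1, 12.2, 8.52 and 1.21 RPKM at d36 (log2 change 2.92 ± 0.49 (SE), limma adjusted p = 0.0207). Slc3a2, the heavy chain of amino acid transporters, had 639, 581, 567 and 633 RPKM at d15 and 351, 443, 478 and 339 RPKM at d36 (log2 change -0.60 ± 0.16 (SE), limma adjusted p = 0.0719; 0.0495 without replicate 9), and d36 was the lower without overlap. Its d0 level was 336 ± 45 RPKM (SD, n = 4), nearer to d36 than to d15.

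Hypoxia and glycolysis genes had higher medians in 3 of the 4 d36 libraries. Of 30, 29 were on the table and 25 were tested; 1 rose with all libraries, Adm, and 16 rose without replicate 9. The median log2 change over the 25 was 0.66, and the median differences were 0.97, 0.99, 0.83 and -0.11 in replicates 1, 7, 8 and 9. Eno1, the glycolytic enolase, had 28.4, 31.5, 20.8 and 26.1 RPKM at d15 and 128, 82.5, 89.3 and 28.9 RPKM at d36 (log2 change 1.42 ± 0.36 (SE), limma adjusted p = 0.0663; 4.85e-05 without replicate 9). Pgk1, the phosphoglycerate kinase, had 3.51, 4.06, 3.26 and 3.86 RPKM at d15 and 13.8, 8.74, 9.87 and 4.56 RPKM at d36 (log2 change 1.05 ± 0.25 (SE), limma adjusted p = 0.0513; 0.000263 without replicate 9). In replicate 9 Eno1 lay among the d15 libraries, and Pgk1 just above them. The core of the hypoxia response element, ACGTG on either strand, was found in 16 of 28 matched promoters of the list (57.1%, against 19.7% of all). The carcinoma markers were low in replicate 9 as well, and their part was not tested.

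Immediate-early genes also had higher medians in replicates 1, 7 and 8 than in replicate 9. Of 23, 2 rose (median log2 change 0.73), 15 rose without replicate 9, and the 2 lost their calls with no filter on low values. Myc, a driver of growth, had 2.02, 2.89, 4.46 and 4.51 RPKM at d15 and 230.3, 136, 108 and 4.68 RPKM at d36 (log2 change 3.94 ± 0.91 (SE), limma adjusted p = 0.0483; 0.0623 after centring). Fosl1, an AP-1 subunit, had 0.722, 1.08, 0.718 and 1.04 RPKM at d15 and 35.3, 31.8, 17.5 and 1.8 RPKM at d36 (log2 change 3.06 ± 0.65 (SE), limma adjusted p = 0.0367; 0.0507 after centring). Fos had 28.4, 35.3, 49.4 and 28.8 RPKM at d15 and 114, 378, 121 and 47.5 RPKM at d36 (log2 change 1.83 ± 0.48 (SE), limma adjusted p = 0.0715; 0.00148 without replicate 9). For Myc and Fosl1 replicate 9 was the lowest of d36 and above the highest d15 library, and for Fos it lay among the d15 libraries. Of 15 heat shock chaperone genes, 3 rose (median log2 change 0.59; 1 after centring). Without replicate 9, 7 rose and the median was 0.97. Hspd1, the mitochondrial chaperonin, had 19, 18.6, 16.8 and 19.2 RPKM at d15 and 106, 56.9, 64.2 and 23 RPKM at d36 (log2 change 1.53 ± 0.35 (SE), limma adjusted p = 0.0471; 0.0699 after centring). Its partner Hspe1 had 9.68, 9.27, 8.52 and 7.59 RPKM at d15 and 37.4, 21, 26.3 and 13.4 RPKM at d36 (log2 change 1.3 ± 0.25 (SE), limma adjusted p = 0.0272). Hsp90aa1, the inducible form of HSP90, had 10.3, 11, 14.1 and 11 RPKM at d15 and 35.1, 25.1, 31.3 and 15.7 RPKM at d36 (log2 change 1.09 ± 0.22 (SE), limma adjusted p = 0.0308; 0.0528 after centring). In all 3 replicate 9 was the lowest of d36 and above d15.

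Interferon and antigen presentation genes mostly had negative log2 changes that did not pass, and replicate 7 carried much of the interferon list's median. None of 21 interferon response genes passed limma (0 higher and 3 lower at an unadjusted p under 0.05; median log2 change -0.33, 18 of 21 negative; 1 fell without replicate 9). Their median differences from the d15 mean were -0.03, -1.14, 0.0076 and -0.03 in replicates 1, 7, 8 and 9, and without replicate 7 the median log2 change was -0.0062. All 16 tested genes of MHC and antigen presentation had negative log2 changes (median -0.43). None passed limma (0 higher and 6 lower at an unadjusted p under 0.05), and 3 fell without replicate 9. Bst2, the interferon-induced tetherin, had 527, 619, 504 and 592 RPKM at d15 and 324, 241, 452 and 520.5 RPKM at d36 (log2 change -0.60 ± 0.23 (SE), limma adjusted p = 0.175; 0.0293 without replicate 9). H2-Q7, a class I gene with close copies, had 192, 181, 175 and 237 RPKM at d15 and 108, 73.3, 148 and 170.5 RPKM at d36 (log2 change -0.71 ± 0.24 (SE), limma adjusted p = 0.133; 0.02 without replicate 9). H2-T23 had 924, 1059, 913 and 960.5 RPKM at d15 and 610.4, 522, 751 and 877 RPKM at d36 (log2 change -0.51 ± 0.19 (SE), limma adjusted p = 0.162; 0.0314 without replicate 9). Tap2, a peptide transporter subunit, had 20.6, 18.2, 21.2 and 22.7 RPKM at d15 and 14.5, 14.1, 14.7 and 17.2 RPKM at d36 (log2 change -0.43 ± 0.12 (SE), limma adjusted p = 0.0892; 0.024 without replicate 9). In H2-Q7, H2-T23 and Tap2 every d36 library was under every d15 library, and replicate 7 was the lowest.

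Of 13 glucocorticoid response genes, 2 rose and 1 fell (median log2 change 0.15; 3 and 2 without replicate 9). Of the 2, Mt2 was tested only through d36. The metallothionein genes, which bind zinc and also respond to metals, rose: Mt1 had 5.95, 5.11, 5.28 and 5.35 RPKM at d15 and 181, 92.8, 104 and 12.2 RPKM at d36 (log2 change 3.44 ± 0.62 (SE), limma adjusted p = 0.0241). Mt2 had 0.417, 0.763, 0.372 and 0.622 RPKM at d15 and 56.5, 34.4, 40.02 and 2.6 RPKM at d36 (log2 change 3.93 ± 0.69 (SE), limma adjusted p = 0.0239). The member that fell was Zbtb16. None of 10 clock genes passed limma (1 higher and 4 lower at an unadjusted p under 0.05; median -0.48; 1 rose and 3 fell without replicate 9), and the hour of collection was not given in the sources used here. Dbp, an output gene of the clock, had 3.53, 12.4, 7.58 and 7.22 RPKM at d15 and 1.41, 1.28, 3.05 and 6.15 RPKM at d36 (log2 change -1.19 ± 0.39 (SE), limma adjusted p = 0.124; 0.00822 without replicate 9). Per1, a repressor of the clock, had 5.44, 8.06, 11.5 and 10.1 RPKM at d15 and 3.95, 5.95, 5.92 and 1.81 RPKM at d36 (log2 change -0.90 ± 0.30 (SE), limma adjusted p = 0.126). Arntl, which encodes the activator BMAL1, had 6.4, 1.97, 2.95 and 3.69 RPKM at d15 and 8.49, 9.75, 6.21 and 4.26 RPKM at d36 (log2 change 0.81 ± 0.29 (SE), limma adjusted p = 0.15; 0.0269 without replicate 9). The groups overlapped in these 3 clock genes.

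Of 18 tested matrix, matricellular and mesenchymal genes, 4 rose and none fell (median log2 change 0.41): Lgals1, S100a4, S100a6 and Fn1. S100a4 and Fn1 were under 1 RPKM in every d15 library, so these 2 were tested only through d36. Without replicate 9, 8 rose. Fn1, the gene of fibronectin, had 0.0223, 0.061, 0.0727 and 0.178 RPKM at d15 and 5.76, 4.12, 5.27 and 1.1 RPKM at d36 (log2 change 2.09 ± 0.31 (SE), limma adjusted p = 0.0139). Of all 26 on the table, 8 did not overlap with d36 higher, against 9.89% of all entries of the table. None of 9 integrin genes passed limma (0 higher and 0 lower at an unadjusted p under 0.05; median -0.01). The fibroblast marker Lum, which encodes lumican of collagen fibres, had 0.0138, 0.182, 0.179 and 0.237 RPKM at d15 and 22.8, 11.8, 26.7 and 1.01 RPKM at d36 (log2 change 3.31 ± 0.66 (SE), limma adjusted p = 0.0297), and the part of fibroblast RNA in the matrix genes was not tested. Lum was under 1 RPKM in every d15 library and was tested only through d36, so the filter set its direction and lack of overlap in advance. Of 13 tested genes of fatty acid uptake, 1 rose and 1 fell (median 0.20), and both calls were lost with no filter on low values. Without replicate 9, 4 rose and 1 fell. The transporter gene Slc27a1 had 0.987, 0.658, 0.886 and 0.475 RPKM at d15 and 4.92, 4.51, 4.16 and 1.19 RPKM at d36 (log2 change 1.33 ± 0.28 (SE), limma adjusted p = 0.0362; 0.0548 after centring), and it was tested only through d36. The fall was that of Gpihbp1. None of 12 cholesterol genes passed limma (3 higher and 0 lower at an unadjusted p under 0.05; median 0.19; 3 rose without replicate 9, against 11.8% of all tested entries).

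Genes of the carcinoma list were present in 3 of the d36 libraries at levels far from d15. Of 13 markers, 10 were on the table and 7 were tested; 3 rose (4 without replicate 9), of which Rhox5 was tested only through d36, and over the 10 the median log2 change was 1.28. Besides Rhox5 these were Hmga1, a chromatin protein of embryonic and tumour cells with a related copy in the genome, at 1.89, 2.07, 2.51 and 2.71 RPKM at d15 and 98.1, 65.7, 60.3 and 4.72 RPKM at d36 (log2 change 3.57 ± 0.71 (SE), limma adjusted p = 0.0296). Krt18, a keratin of simple epithelia, had 3.49, 2.96, 3.76 and 2.64 RPKM at d15 and 90.1, 71.2, 46.1 and 5.66 RPKM at d36 (log2 change 3.18 ± 0.65 (SE), limma adjusted p = 0.0324). Its partner Krt8 had 2.61, 2.38, 1.87 and 1.67 RPKM at d15 and 57.6, 44.7, 29.2 and 2.55 RPKM at d36 (log2 change 2.9 ± 0.70 (SE), limma adjusted p = 0.0534; 2.24e-07 without replicate 9). In replicate 9 Krt8 lay among the d15 libraries, and the other 3 lay above them.

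Genes of leukocytes and macrophages also rose. Of 13 pan-leukocyte markers, 12 were on the table and 8 were tested, 5 of them only through d36; 5 rose (2 after centring, 3 with no filter on low values), and the groups did not overlap for 9 of the 12, all higher at d36 (9.89% of all entries of the table). Itgb2, the shared chain of the leukocyte integrins, had 0, 0.204, 0.0789 and 0.15 RPKM at d15 and 13.4, 13.6, 19.6 and 1.78 RPKM at d36 (log2 change 3.25 ± 0.50 (SE), limma adjusted p = 0.0147). Cd52, a surface peptide of lymphocytes and monocytes, had 0, 0.0417, 0.0632 and 0.034 RPKM at d15 and 1.32, 3.36, 6.38 and 1.32 RPKM at d36 (log2 change 1.81 ± 0.32 (SE), limma adjusted p = 0.0233). Tyrobp, a signalling adaptor of myeloid and NK cells, had 0.433, 0.276, 0.391 and 0.737 RPKM at d15 and 3.49, 14.1, 19.3 and 1.97 RPKM at d36 (log2 change 2.46 ± 0.51 (SE), limma adjusted p = 0.0356; 0.0507 after centring). Replicate 8 was the highest library in each of these 3. All 3 were under 1 RPKM in every d15 library and were tested only through d36, so the filter set their direction and lack of overlap in advance.

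Of 19 macrophage and monocyte markers, 15 were on the table and 10 were tested, 4 of them only through d36. Of these, 6 rose and 1, Lyz1, fell; over the 15 the median log2 change was 1.17. Marco, a scavenger receptor of alveolar macrophages, had 0, 0, 0.0977 and 0 RPKM at d15 and 1.83, 8.13, 6.67 and 2.21 RPKM at d36 (log2 change 2.3 ± 0.34 (SE), limma adjusted p = 0.0139). Itgam, the integrin CD11b, had 0.0686, 0.0426, 0 and 0 RPKM at d15 and 1.03, 2.27, 3.51 and 1.14 RPKM at d36 (log2 change 1.46 ± 0.22 (SE), limma adjusted p = 0.0147). Cd68, a lysosomal macrophage protein, had 1.82, 1.76, 3.08 and 1.87 RPKM at d15 and 8.36, 9.19, 9.77 and 3.85 RPKM at d36 (log2 change 1.44 ± 0.25 (SE), limma adjusted p = 0.0225). None of the 3 overlapped between the groups, which the filter set in advance for Marco and Itgam, both tested only through d36. Replicate 9 was within the d36 range for Marco and Itgam and the lowest for Cd68. Whether these transcripts came from leukocytes in the sort or from endothelial cells was not tested.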

How the data were processed

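RNA of sorted mouse lung endothelial cells was sequenced in 16 libraries, of which the 4 of d15 and the 4 of d36 were compared. The authors deposited RPKM values (reads per kilobase per megaread) of 17715 entries, per the file headers. The submitters' processing notes name STAR, DESeq2 and mm10, with neither version nor role. The annotation, the transcript length and any filter are not given in the sources used here. The deposited table also holds the authors' log2 fold changes and adjusted p-values for 3 time points. Per the file headers these have no named reference group, and they were not used here.

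Depth was estimated from the step between low RPKM values: 409 of 4296 low entries were whole reads in every library (tolerance 0.1 read), against 0 with wrong depths, and 65 single-transcript genes set the scale. Most entries did not come out whole, so no count test was run.

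The 13249 entries that reached 1 RPKM in 4 or more of the 8 libraries were fitted as log2(RPKM + 1) with limma 3.58.1 in R 4.3.3 (intensity trend, two-sided, Benjamini-Hochberg over all of them, threshold 0.05). The fit held only the 8 libraries, because d36 libraries spread more than the others. Alternatives were all 16 libraries, a pseudocount of 0.1, no filter, median centring, quantile normalization, array weights, removal of the length and GC trend, and each library left out. Genes are named by rule: Lrg1, the 10 largest rises and falls among calls without overlap between the groups and with a group mean of 2 RPKM or more, and up to 4 tested members of each of 45 lists with the smallest p, or that define it. Further genes were named after their values were seen, because they passed in every fit with a library left out or appear under other observations. Entries with only a clone or transcript identifier are counted. One gene that the rule names is not reported here. The comparison and the lists were chosen with earlier results of these data known. Positions are from GENCODE (GRCm38) and promoters from RefSeq (GRCm38.p6).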

Additional observations from a re-analysis of the deposited data

Results flagged for a closer look

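In 29 of 284 groups of 4 libraries, the highest or the lowest library was far from the other 3. Chance flags about 1 in 20 groups, and the groups are not independent of each other. Of the 29, 18 were at d36, and 17 of those were d36 replicate 9. It was low for Lgals1 (31.1 RPKM), Ccl7 (2.62), Serpinf1 (3.01), Pla2g7 (6.38), Gsn (21.4), Vwf (37.2), Nid1 (21.8), Adm (2.09), Ptgs2 (3.01), Tgfb3 (1.15), Slc27a1 (1.19) and Hmga1 (4.72), and high for Cbr2 (32.1 RPKM). Its mean over a gene list, on the log2(RPKM + 1) scale, was low for angiogenesis and tip cell genes (3.82), hypoxia and glycolysis (3.11), endoplasmic reticulum folding (5.23) and amino acid transport and ATF4 targets (2.56). The 18th was d36 replicate 7, with a low mean of interferon response genes (3.09).

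At d15, replicate 4 was high for Sftpa1 (61.4 RPKM) and Sftpb (51.8 RPKM). Replicate 3 was high for Saa3 (0.0403 RPKM, with the other 3 libraries listed at 0) and Nipsnap3b (4.44 RPKM), and it was listed at 0 for Chi3l3. Replicate 5 was high for Marco (0.0977 RPKM, the others listed at 0), Cd68 (3.08 RPKM) and Grp (16.4 RPKM). On the log2(RPKM + 1) scale its list mean was low for general capillary genes (6.61) and high for the IL-6 family and STAT3 (3.13). Replicate 6 had a low mean of carcinoma cell markers (1.27).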

How the results depend on the processing

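The counts of called entries depended on the fit. Against 335 higher and 35 lower, the fit over all 16 libraries gave 1339 and 234, and array weights, under which d36 replicate 9 had a weight of 0.288, gave 1997 and 440. Median centring gave 128 and 78, and quantile normalization 145 and 59. With no filter 280 entries were higher and 18 lower. Leaving out 1 library gave 21 to 1567 higher and 0 to 307 lower entries; the highest counts came without d36 replicate 9. Without d15 replicates 3, 4, 5 or 6 there were 77, 23, 21 and 22 higher and 2, 0, 0 and 1 lower entries. Without d36 replicates 1, 7 or 8 there were 38, 151 and 49 higher and 2, 24 and 7 lower entries. The cause was not tested, beyond the fewer libraries. None of the 102 named genes changed sign under any of these alternatives. Most were chosen for a large change or a small p in the main fit, so this does not describe other genes. Of the 70 that passed, 17 did so in all 8 fits with a library left out. Most of these 17 were named because they did so, so their share of the 70 is not a result. Over all 370 called entries, 19 passed in all 8. A pseudocount of 0.1 and removal of the length and GC trend left both counts within 1.5 times. No paired analysis was possible because the groups compared share fewer than 2 replicate numbers. Whether libraries came from separate mice rests on the series design. RPKM carries no counting error of its own, so depth limits the transcripts under 1 RPKM most.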

Other observations

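Entries of the immunoglobulin kappa locus, a product of B cells and plasma cells, were higher at d36 in every library, and were singled out after their values were seen. The entry of the constant region, Igkc (chromosome 6, 70726435 to 70726966, GRCm38), had 0.199, 1.23, 0.197 and 0.4504 RPKM at d15 and 10.3, 13.4, 79.2 and 14.6 RPKM at d36. The log2 change was 3.85 ± 0.52 (SE), and it passed limma (adjusted p = 0.00863). The joining segment Igkj2 (70722916 to 70722958) had 0, 0, 0 and 0.199 RPKM at d15 and 5.35, 18.05, 24.1 and 6.04 RPKM at d36 (log2 change 3.53 ± 0.39 (SE), limma adjusted p = 0.00504), and it passed whichever library was left out. Igkj5 (70723886 to 70723927) had 0, 0.25, 0 and 0 RPKM at d15 and 4.54, 1.15, 30.9 and 4.69 RPKM at d36 (log2 change 2.69 ± 0.61 (SE), limma adjusted p = 0.0463). For Igkj5, d36 replicate 7 lay under the highest d0 library (2.45 RPKM). Igkj2 and Igkj5 were under 1 RPKM in every d15 library and were tested only through d36. The filter therefore set their direction and lack of overlap in advance. The segments are short, and reads of joined transcripts can be split between them.

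The mitochondrially encoded ND4L and ND5, subunits of complex I, rose while the nuclear subunits did not pass, and were also singled out after their values were seen. ND4L had 257, 188, 131 and 191 RPKM at d15 and 485, 432, 415 and 750.2 RPKM at d36 (log2 change 1.43 ± 0.24 (SE), limma adjusted p = 0.0192). ND5 had 153, 135, 102 and 115 RPKM at d15 and 225, 208, 194 and 338 RPKM at d36 (log2 change 0.91 ± 0.20 (SE), limma adjusted p = 0.039; 0.0864 after centring). Replicate 9 was the highest library for both, unlike for most rises. ND4L at d22 was 452 ± 36.4 RPKM and at d0 137 ± 46.6 RPKM (SD, n = 4), so d22 was near d36 and d0 near d15.

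Grp, the gene of gastrin-releasing peptide, was chosen for its narrow spread at d15, which lowers its standard error, so its levels are given without a test. It had 15.1, 14.9, 16.4 and 14.8 RPKM at d15 and 5.63, 7.36, 7.12 and 9.78 RPKM at d36, without overlap. Its levels at d0 and d22 were 9.22 ± 2.02 and 7.59 ± 0.726 RPKM (SD, n = 4), nearer to d36 than to d15.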
